A study of Oryctolagus cuniculus with 9 samples.

Results

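Chemokines and their receptors were described in rabbit urethral tissue from a study of a newly designed urethral repair stent. The members were the rows of the gene table whose symbol begins with CCL, CXCL, CCR, CXCR, XCL, XCR, CX3CL, CX3CR or ACKR and a number, and 46 of 28788 rows matched. They comprised 24 ligands and 22 receptors. Polyadenylated RNA was sequenced in 9 libraries that carry 3 codes, S9, S7 and S6, with 3 libraries each. S9 comprised libraries S9_1, S9_2 and S9_4, S7 comprised S7_2, S7_3 and S7_4, and S6 comprised S6_2, S6_3 and S6_4. The sources used here do not give the treatment, time point, strain, age or animal behind each code, nor is it stated which code is a control or whether the libraries came from separate animals. Every p-value therefore measures the spread between these libraries only.

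Chemokines are small secreted proteins that form gradients, and leukocytes move along them by means of G-protein-coupled receptors on their surface. Inflammatory chemokines are made on demand by injured or infected tissue and call in neutrophils, monocytes and effector lymphocytes, while homeostatic chemokines are made constantly and guide the traffic of lymphocytes and stem cells. Atypical receptors bind chemokines without the usual signalling and clear or transport them, which shapes the gradient. In healing wounds in mice and humans, neutrophils arrive early along CXC ligands of CXCR1 and CXCR2, and monocytes follow along CCL2 and its relatives. Roles given here are those known from humans and mice unless stated.

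Library totals lay between 35127085 and 36832773 counts, so depth was close to even. The tissue label was compared with marker genes. Markers of basal and stratified epithelium summed to between 1209.9 and 3564 CPM, that is counts per 1000000 TMM-adjusted counts of the tested genes, and smooth muscle markers to between 1518.5 and 10716 CPM over the 9 libraries, whereas 4 uroplakin genes, which mark urothelium, summed to at most 24.0 CPM. Library S6_3 stood apart within S6. It held the highest CPM of the 9 libraries for 22 of the 41 members that could be tested, which is 53.7% of them, against 21.6% of all tested genes. In 15 members its CPM was over 2-fold that of the next S6 library, which was so for 6.56% of all tested genes. For the named members and lists that this library moves most, values without it are given as well.

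All 46 members were detected, in the sense of 10 or more counts in at least 1 library. The number detected per library was 33, 37 and 34 in S9, 37, 38 and 37 in S7, and 40, 43 and 41 in S6. In S9 no library reached 10 counts for CCL1, CCL11, CCL17, CCL20, CCR8, CCR9 and CCR10. In S7 this was so for CCL1, CCL11, CCL17, CCL20, CCR9 and CXCL13, and in S6 for CCR8 alone. After a filter on low counts 41 members, 22 ligands and 19 receptors, were tested among 17102 genes, and CCL1, CCL11, CCR8, CCR9 and CCR10 were not. A member could pass this filter through the group where it was high: 11 of the 41 had fewer than 10 counts in at least 1 S9 library.

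**Figure D1:**
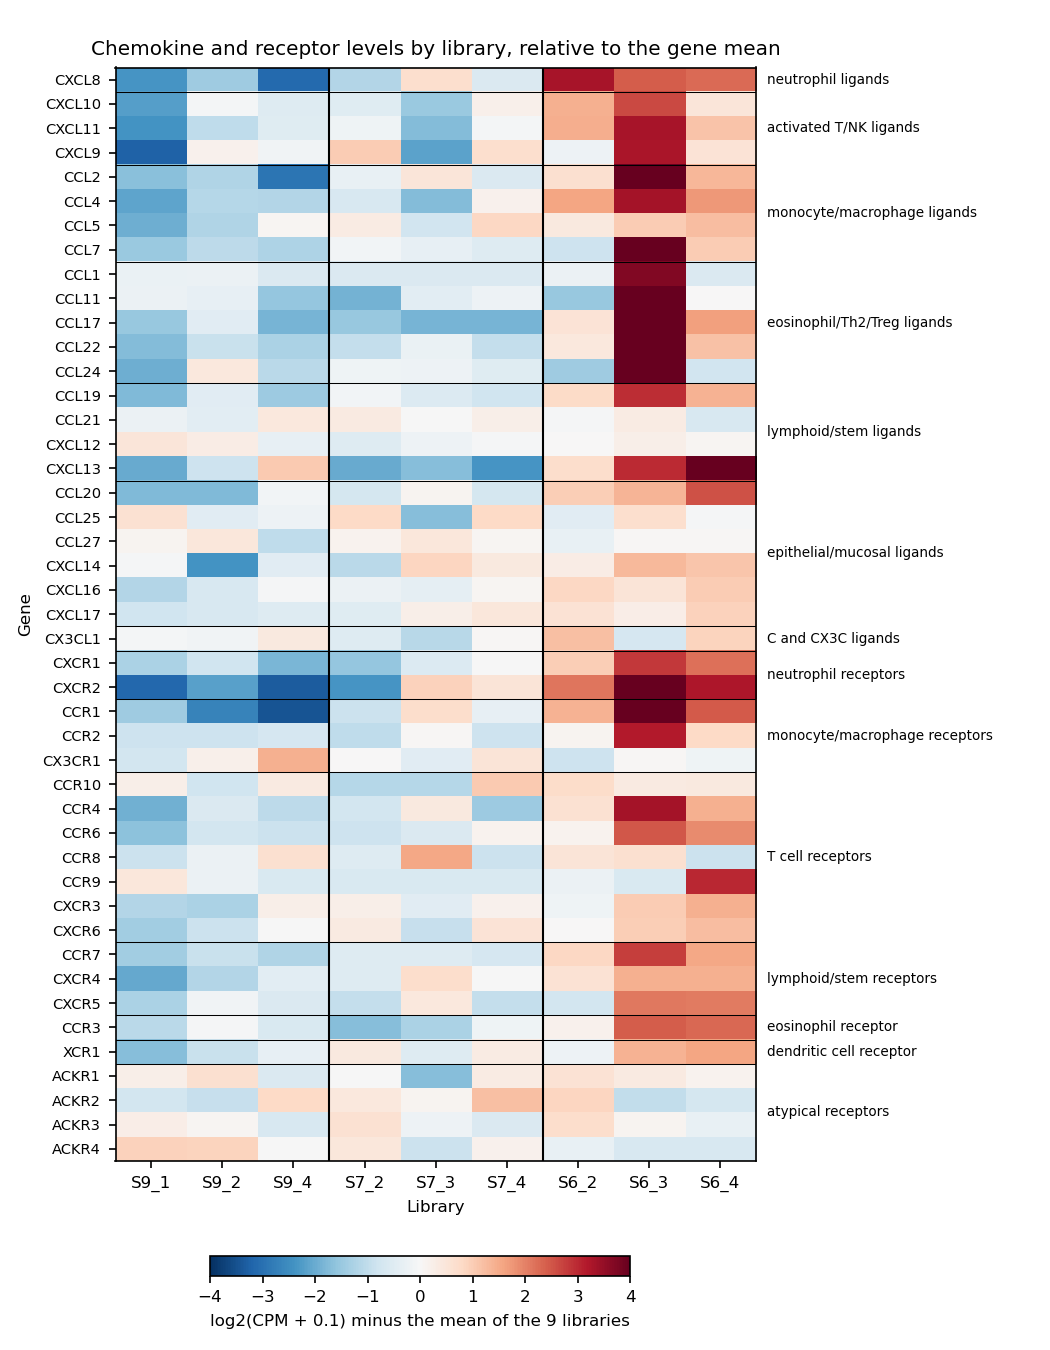
Chemokine and receptor genes (45 rows) in the 9 libraries (columns, S9, S7 and S6 from left to right). Colour is log2(CPM + 0.1) minus the gene's mean over the libraries; most inflammatory ligands and leukocyte receptors are above their mean in S6, while CXCL12, CCL21 and the atypical receptors show no such block of colour.

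Between S9 and S6, 19 of the 41 tested members were lower in S9, none was higher and 22 did not pass the test (edgeR quasi-likelihood test, Benjamini-Hochberg adjusted p below 0.05 over all genes tested). Of all tested genes, 6.34% were called lower and 6.02% higher in this comparison. The called members had adjusted p-values between 0.0132 and 0.0462. Of the 30 tested members with 10 or more counts in every S9 library 13 were called lower, and of the other 11 members 6 were. The median log2 fold change of the members was -2.49, and that of all tested genes was -0.01. It was negative for 36 of 41 members, against 50.7% of all tested genes. At an unadjusted p below 0.05, 30 members were lower and 1, ACKR4, was higher, beside 15.8% and 15.4% of all tested genes, or 31.2% in either direction. Without library S6_3 the median of the members was -1.70 and 11 members were called lower, beside 3.62% of all genes tested in that fit. DESeq2 called 28 members lower and 1 higher with all libraries, beside 12.2% of genes lower. Without S9_1 none was called, without S9_2 none, and without S6_4 CXCL8 and CCR7 were, although every one of the 19 kept its sign in each of these fits. The lower members included ligands and receptors of neutrophils, monocytes and T cells, the dendritic cell receptor XCR1, and the epithelial ligands CXCL16 and CXCL17. These are bulk libraries, in which fewer cells of a type and less RNA per cell cannot be told apart.

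The neutrophil ligand CXCL8 and both neutrophil receptors were lower in S9, and CXCR2 had the largest difference among the tested receptors. No other neutrophil ligand was among the members, as no row carried the symbol CXCL1, CXCL2, CXCL3, CXCL5 or CXCL6. CXCL8, the main neutrophil attractant in rabbits and humans and absent from mice, had 0.900, 1.81 and 0.503 CPM in S9, 2.18, 8.03 and 3.35 CPM in S7, and 50.6, 27.4 and 24.7 CPM in S6. The groups did not overlap, and the highest S9 library was below the lowest S7 library. Its log2 fold change between S9 and S6 was -5.00 (SE 0.67, adjusted p = 0.0132), or 31.9-fold lower. CXCL8 was highest in S6_2 rather than in S6_3, and without S6_3 its log2 fold change was -5.12. CXCR2, the neutrophil receptor for CXCL8 and other CXC ligands, had 0.132, 0.356 and 0.106 CPM in S9, 0.300, 3.77 and 2.86 CPM in S7, and 8.94, 38.0 and 19.2 CPM in S6. All S6 libraries lay above all others, while S7_2 lay inside the S9 range. The log2 fold change between S9 and S6 was -6.78 (SE 1.07, adjusted p = 0.0166), and without S6_3 it was -6.12. CXCR1, which in humans responds mainly to CXCL8 itself, had 3.36, 4.68 and 2.25 CPM in S9, 2.78, 5.64 and 8.25 CPM in S7, and 16.7, 59.6 and 38.3 CPM in S6. S9 and S7 overlapped and both lay below S6, with a log2 fold change between S9 and S6 of -3.47 (SE 0.57, adjusted p = 0.0179). On the length-scaled FPKM level, CXCR2 was at 1.57% to 3.03% of CXCR1 in S9, at 4.30% to 26.7% in S7 and at 20.0% to 25.4% in S6. The S9 values rest on only 5, 13 and 4 counts of CXCR2, and the S7 range encloses the S6 range. This ratio was not tested.

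Most tested neutrophil marker genes were lower in S9 as well. Their 8 listed genes summed to between 833 and 6438 CPM in S9, 5676 and 8095 CPM in S7, and 8826 and 15733 CPM in S6. The calcium-binding proteins S100A8, S100A9 and S100A12 and the receptor CSF3R were called lower in S9 than in S6, 4 of 5 tested. The fifth, the lactoferrin gene LTF, which glands also express, reached 5680 CPM in S9_2 and did not pass the test (log2 fold change 2.92, SE 1.16, adjusted p = 0.125). MMP8 was at 0 in every library, and MPO did not exceed 0.109 CPM; both are granule genes transcribed mainly in bone marrow precursors. The part of neutrophil content in the CXCL8 and CXCR2 differences was not tested.

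**Figure D2:**
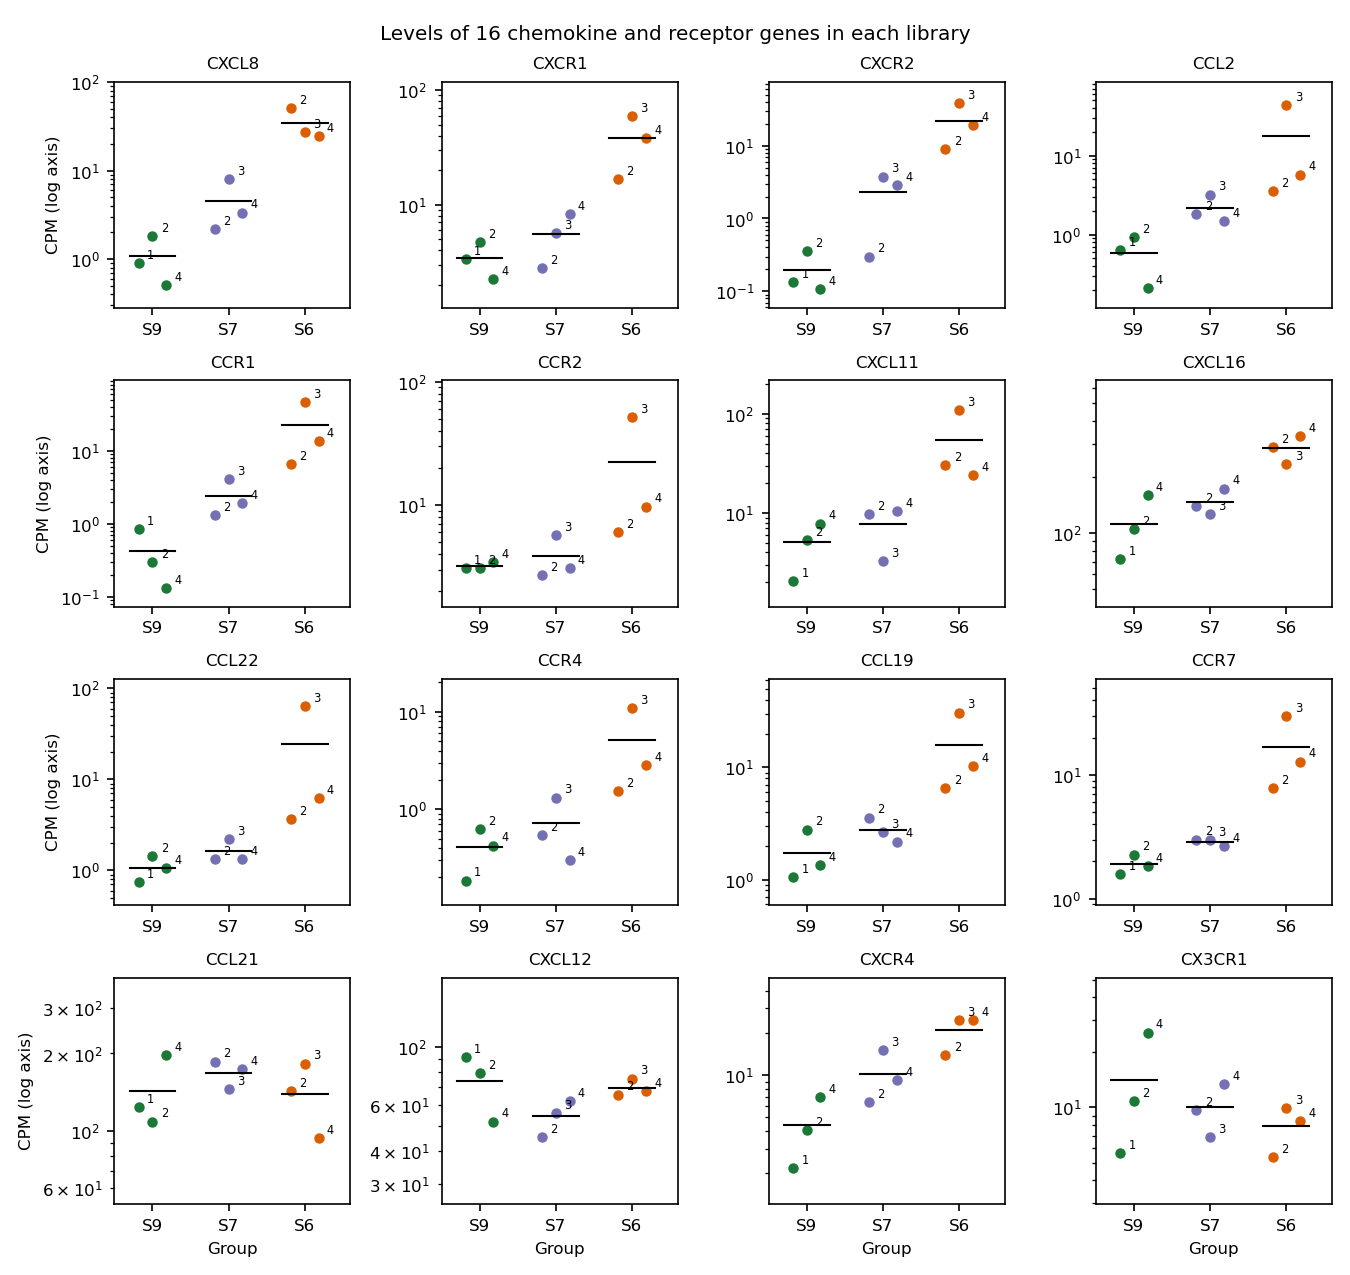
CPM on a log axis for 16 ligands and receptors in S9, S7 and S6, left to right in each panel. Digits are library numbers and lines are group means; CXCL8 reaches at most 1.81 CPM in S9 and at least 24.7 CPM in S6, while CCL21 overlaps between all groups and CXCL12 overlaps between S9 and S6.

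Ligands that attract monocytes and macrophages were lower in S9 for 3 of 4 members, CCL2, CCL4 and CCL7. No row carried the symbol CCL3 or CCL8. CCL2, the principal ligand of CCR2 on classical monocytes, had 0.635, 0.931 and 0.212 CPM in S9, 1.83, 3.21 and 1.47 CPM in S7, and 3.58, 43.3 and 5.76 CPM in S6. The groups were separate, and S6_3 was 7.52-fold above the next S6 library. The log2 fold change between S9 and S6 was -4.88 (SE 1.05, adjusted p = 0.0267), and without S6_3 it was -2.96 and still called. CCL4, a macrophage inflammatory protein, had 0.476, 1.01 and 1.01 CPM in S9, 1.5, 0.643 and 2.70 CPM in S7, and 7.26, 24.6 and 8.15 CPM in S6. Its S6 libraries lay above all others, with a log2 fold change between S9 and S6 of -4.0 (SE 0.71, adjusted p = 0.0196), and of -3.19, still called, without S6_3. CCL7, a further CCR2 ligand, had 0.344, 0.493 and 0.424 CPM in S9, 1.04, 0.876 and 0.763 CPM in S7, and 0.596, 28.0 and 2.39 CPM in S6. Here S6_3 decided the size of the difference: the log2 fold change was -4.61 (SE 1.24, adjusted p = 0.0443) with this library and -1.80, no longer called, without it. The call of CCL7 held in 4 of 17 alternatives, and it was also lost with S6_3 kept, for example with limma-voom or a length correction. CCL5, made by T and NK cells as well as by stromal cells, had 8.34, 14 and 34.3 CPM in S9, 40.8, 19.0 and 56.9 CPM in S7, and 42.4, 64.8 and 76.3 CPM in S6. S9 lay below S6 but the difference did not pass the test (log2 fold change -1.70, SE 0.55, adjusted p = 0.0744).

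Of the receptors on monocytes and macrophages, CCR1 and CCR2 were lower in S9 and CX3CR1 did not pass the test. CCR1, which binds CCL5, CCL7 and related ligands, had 0.847, 0.301 and 0.132 CPM in S9, 1.31, 4.06 and 1.93 CPM in S7, and 6.61, 46.3 and 13.8 CPM in S6. Each S9 library lay below each S7 library, and each S7 library below each S6 library. The log2 fold change of CCR1 between S9 and S6 was -5.69 (SE 0.98, adjusted p = 0.0195), or 51.6-fold lower, and -4.54 without S6_3. CCR2 had 3.10, 3.09 and 3.47 CPM in S9, 2.70, 5.73 and 3.10 CPM in S7, and 6.01, 51.4 and 9.73 CPM in S6. Its log2 fold change of -2.79 (SE 0.75, adjusted p = 0.0445) was -1.27 and not called without S6_3. The call of CCR2 held in 5 of 17 alternatives, and it was also lost with S6_3 kept, for example with limma-voom or a length correction. CX3CR1, the receptor of patrolling monocytes and tissue macrophages, had 5.61, 10.9 and 25.6 CPM in S9, 9.66, 6.87 and 13.5 CPM in S7, and 5.34, 9.87 and 8.42 CPM in S6. The groups overlapped and the difference did not pass the test (log2 fold change 0.83, SE 0.52, adjusted p = 0.311). CX3CL1, its membrane-bound ligand, had 25.2, 24.3 and 35.3 CPM in S9, 18.8, 12.4 and 27.5 CPM in S7, and 62.2, 16.7 and 49.3 CPM in S6. It was the lowest of S6 in S6_3, the library with the highest CPM of most other members, and its log2 fold change between S9 and S6 of -0.60 (SE 0.45, adjusted p = 0.408) did not pass the test.

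Macrophage markers summed to between 129 and 210 CPM in S9 (6 genes), 139.7 and 240.2 CPM in S7, and 333 and 875 CPM in S6, with S6_3 the highest. CD68 and the scavenger receptors CD163 and MSR1 were called lower in S9 than in S6, 3 of 6. With S6_3 left out, 1 of the 6 was called lower. The part of macrophage content in the CCL2, CCR1 and CCR2 differences was not tested.

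The interferon-induced ligands of CXCR3, which draw activated T and NK cells, had 1 of 3 members called. CXCL11 had 2.04, 5.37 and 7.81 CPM in S9, 9.68, 3.27 and 10.5 CPM in S7, and 30.4, 109 and 24.3 CPM in S6. S6 lay above both other groups, and the log2 fold change between S9 and S6 was -3.43 (SE 0.76, adjusted p = 0.0280); without S6_3 it was -2.42 and not called. CXCL10 had 5.66, 24.9 and 18.3 CPM in S9, 18.7, 9.32 and 30.0 CPM in S7, and 70.3, 163 and 36.6 CPM in S6. Its S9 and S6 libraries did not overlap but the test was just missed (log2 fold change -2.46, SE 0.70, adjusted p = 0.0522), and without S6_3 the log2 fold change was -1.70. CXCL9, at 0.344, 4.52 and 3.65 CPM in S9, 8.32, 0.847 and 6.54 CPM in S7, and 3.52, 40.1 and 5.95 CPM in S6, overlapped between the groups (log2 fold change -2.54, SE 1.21, adjusted p = 0.189). S6_3 was 6.74-fold above the next S6 library for CXCL9, and without it the log2 fold change was -0.73. Their receptor CXCR3 had 2.30, 2.11 and 6.25 CPM in S9, 6.19, 3.80 and 5.88 CPM in S7, and 4.63, 10.8 and 14.2 CPM in S6. S9_4 lay above S6_2, and the log2 fold change of -1.47 (SE 0.54, adjusted p = 0.10) did not pass the test.

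Ligands of type 2 helper T cells, regulatory T cells, eosinophils and basophils rested to a large degree on S6_3. CCL17, a CCR4 ligand made by dendritic cells and keratinocytes, had 0.0265, 0.164 and 0 CPM in S9, 0.0273, 0 and 0 CPM in S7, and 0.433, 43.7 and 1.05 CPM in S6. The S6_3 value was 41.8-fold that of the next S6 library. The fitted log2 fold change between S9 and S6 was -7.83 (SE 2.01, adjusted p = 0.0400), and without S6_3 it was -3.47 and not called. The call of CCL17 held in 3 of 16 alternatives, and it was also lost with S6_3 kept, for example with limma-voom or with no filter on low counts. CCL22, which shares CCR4 with CCL17, had 0.741, 1.42 and 1.06 CPM in S9, 1.34, 2.22 and 1.33 CPM in S7, and 3.63, 63.7 and 6.25 CPM in S6. Unlike CCL17, it was still called without S6_3, with a log2 fold change of -2.18, against -4.51 (SE 1.05, adjusted p = 0.0315) with it. CCL24, an eotaxin, had 0.0265, 0.548 and 0.132 CPM in S9, 0.327, 0.321 and 0.245 CPM in S7, and 0.0813, 24.7 and 0.188 CPM in S6. S6_3 was 131-fold above the next S6 library; the log2 fold change of CCL24 was -5.13 (SE 1.97, adjusted p = 0.114) with that library and 0.80 without it, so its direction turned. CCL11, another eotaxin, was below 0.27 CPM in 8 libraries and at 25.6 CPM in S6_3, and 62 of the 63 S6 counts of CCL1 fell in S6_3; both genes were left untested by the filter.

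CCR4, the receptor of CCL17 and CCL22, had 0.185, 0.630 and 0.424 CPM in S9, 0.546, 1.31 and 0.300 CPM in S7, and 1.54, 10.9 and 2.81 CPM in S6. S6 lay above both other groups (log2 fold change between S9 and S6 -3.61, SE 0.91, adjusted p = 0.0385), and without S6_3 it was -2.38 and not called. CCR3, the eosinophil receptor for CCL11 and CCL24, had 0.476, 1.07 and 0.688 CPM in S9, 0.273, 0.409 and 0.981 CPM in S7, and 1.27, 6.36 and 5.82 CPM in S6. S9 and S6 did not overlap and the test was just missed (log2 fold change -2.59, SE 0.73, adjusted p = 0.0503). CCR8, a receptor of regulatory T cells and the receptor of CCL1, did not exceed 0.438 CPM in any library. The 3 eosinophil granule genes EPX, PRG2 and PRG3 summed to at most 0.662 CPM in S9, 0.0272 CPM in S7 and 0.666 CPM in S6, near 0 in all groups. The RNA of these granule genes does not settle whether mature eosinophils were present. The part of eosinophil content in the CCR3 difference was not tested. Dendritic cell markers summed to 121 CPM in S6_3 and to between 18.7 and 38.2 CPM in the other 8 libraries, and the part of dendritic cell content in the CCL17 and CCL22 differences was not tested.

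The homeostatic ligands of lymphoid traffic split. CXCL12, which retains stem cells and leukocytes through CXCR4, had 91.5, 79.1 and 51.9 CPM in S9, 45.4, 55.9 and 62.2 CPM in S7, and 65.8, 75.6 and 68.0 CPM in S6. The S9 range enclosed the S6 range, with a log2 fold change of 0.09 (SE 0.21, adjusted p = 0.819). CCL21, made by lymphatic endothelium and bound by CCR7, had 124, 109 and 197 CPM in S9, 186, 146 and 174 CPM in S7, and 143, 183 and 93.6 CPM in S6. All groups overlapped, and the log2 fold change between S9 and S6 was 0.04 (SE 0.29, adjusted p = 0.949). Lymphatic markers summed to between 167 and 209 CPM in S9, 142 and 187 CPM in S7, and 114 and 178 CPM in S6. Of 4 genes, PROX1 (edgeR adjusted p = 0.0497) and FLT4 (0.0227) were called higher in S9 than in S6. LYVE1 (log2 fold change 0.28, edgeR adjusted p = 0.653) and PDPN (-0.75, 0.0944) did not pass the test, and PDPN was lower in all S9 libraries than in S6. Without S6_3 only 1 of the 4 was called higher.

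CCL19, the other CCR7 ligand, made by stromal and dendritic cells, had 1.06, 2.79 and 1.35 CPM in S9, 3.57, 2.63 and 2.18 CPM in S7, and 6.56, 30.9 and 10.3 CPM in S6. It was lower in S9 than in S6 with a log2 fold change of -3.19 (SE 0.64, adjusted p = 0.0239), and of -2.26 without S6_3. On the FPKM level CCL19 was at 0.840% to 3.15% of CCL21 in S9, 1.54% to 2.36% in S7 and 5.64% to 20.7% in S6. CXCL13, the B cell attractant of lymphoid follicles, had 0.0265, 0.192 and 0.953 CPM in S9, 0.0273, 0.0584 and 0 CPM in S7, and 0.731, 3.97 and 9.09 CPM in S6. S9_4 lay above S6_2, and the log2 fold change of -3.54 (SE 1.24, adjusted p = 0.0901) did not pass the test.

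The matching receptors were lower for 2 of 3. CCR7, on naive T cells and mature dendritic cells, had 1.59, 2.27 and 1.83 CPM in S9, 3.0, 2.98 and 2.64 CPM in S7, and 7.77, 29.9 and 12.8 CPM in S6. The 3 groups did not overlap and were ordered S9, S7, S6 from low to high, with a log2 fold change between S9 and S6 of -3.15 (SE 0.48, adjusted p = 0.0164) and of -2.42 without S6_3. CXCR4, the receptor of CXCL12 on most leukocytes, had 2.17, 4.08 and 6.94 CPM in S9, 6.41, 15.1 and 9.21 CPM in S7, and 13.9, 24.8 and 24.7 CPM in S6. It was lower in S9 than in S6 (log2 fold change -2.26, SE 0.48, adjusted p = 0.0261), although not called without S6_3, at -2.12, while its ligand overlapped between those groups. CXCR5, the CXCL13 receptor of B cells and follicular helper T cells, was at 0.159 to 0.466 CPM in S9, 0.218 to 0.730 CPM in S7 and 0.271 to 2.57 CPM in S6 (log2 fold change between S9 and S6 -2.49, SE 0.92, adjusted p = 0.104). Markers of B and plasma cells summed to between 903 and 1681 CPM in S9, 438 and 1549 CPM in S7, and 2195 and 3282 CPM in S6, and 4 of 7 were called lower in S9 than in S6. T and NK cell markers summed to between 16.3 and 39.1 CPM in S9, 22.4 and 50.4 CPM in S7, and 42.4 and 165 CPM in S6, and 3 of 8 were called lower. When S6_3 was left out, 0 of the 8 T and NK cell markers and 3 of the 7 B and plasma cell markers were called lower. The part of lymphocyte content in the receptor differences was not tested.

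Of the 6 epithelial and mucosal ligands, 2 were lower in S9, CXCL16 and CXCL17. CXCL17, a mucosal chemokine of airway and other epithelia that has been linked to macrophage recruitment, had the highest mean FPKM of all ligands in each group: 205 ± 22.7 in S9, 331 ± 105 in S7 and 476 ± 128 in S6 (SD, n = 3 each). It held between 21.1% and 41.5% of the summed ligand FPKM in each library. It had 299, 334 and 366 CPM in S9, 371, 607 and 716 CPM in S7, and 771, 626 and 993 CPM in S6. Each S9 library lay below every other library, and the log2 fold change between S9 and S6 was -1.26 (SE 0.27, adjusted p = 0.0259), or -1.39 without S6_3. CXCL16, a membrane-bound ligand of CXCR6 on macrophages and epithelium, had 72, 105 and 159 CPM in S9, 139.6, 126 and 173 CPM in S7, and 288, 234 and 331 CPM in S6. S6 lay above both other groups, with a log2 fold change between S9 and S6 of -1.35 (SE 0.28, adjusted p = 0.0256), and S6_3 was the lowest S6 library for both CXCL16 and CXCL17. CXCR6, on tissue-resident T and NKT cells, had 4.71, 6.85 and 12.2 CPM in S9, 16.2, 6.54 and 18.1 CPM in S7, and 12.7, 24.9 and 29.7 CPM in S6. S9 and S6 did not overlap by a narrow margin and the test was not passed (log2 fold change -1.50, SE 0.49, adjusted p = 0.0771). Markers of basal and stratified epithelium had no call among 5 tested genes between S9 and S6, and 1 was called lower in S9 without S6_3. Their log2 fold changes lay between -0.99 and 0.28, with 4 of 5 negative, and EPCAM was the lowest (SE 0.39, edgeR adjusted p = 0.123). The part of epithelial content in the CXCL16 and CXCL17 differences was not tested.

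CCL20, which calls in CCR6-bearing dendritic cells and type 17 helper T cells, was scarce, at 0, 0 and 0.212 CPM in S9, 0.109, 0.263 and 0.109 CPM in S7, and 0.569, 0.757 and 1.88 CPM in S6. The groups did not overlap between S9 and S6, but the log2 fold change of -3.85 (SE 1.29, adjusted p = 0.0798) did not pass the test. CCR6 had 0.185, 0.438 and 0.397 CPM in S9, 0.409, 0.497 and 0.899 CPM in S7, and 0.894, 4.87 and 3.22 CPM in S6. It was lower in S9 than in S6 with a log2 fold change of -3.13 (SE 0.72, adjusted p = 0.0307), and was not called without S6_3, at -2.57. CXCL14, an epithelial and fibroblast ligand, had 21.5, 4.19 and 16.4 CPM in S9, 10.6, 40.5 and 29.2 CPM in S7, and 27.6, 55.5 and 48.0 CPM in S6. The S9 values lay below S6, yet the log2 fold change of -1.64 (SE 0.63, adjusted p = 0.115) did not pass the test; its FPKM rests on a gene length of only 130 bases in the deposited values. CCL25, the gut-homing ligand of CCR9, and CCL27, the skin-homing ligand of CCR10, had log2 fold changes between S9 and S6 of -0.10 and 0.03 and did not pass the test. CCR9 and CCR10 were among the untested members, and 42 of the 43 S6 counts of CCR9 came from S6_4.

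XCR1, which marks cross-presenting dendritic cells, had 1.35, 2.46 and 3.65 CPM in S9, 6.06, 3.18 and 5.77 CPM in S7, and 3.98, 12.3 and 13.9 CPM in S6. S9 lay below S6 (log2 fold change -2.01, SE 0.55, adjusted p = 0.0462), the call closest to the threshold, and without S6_3 it was -1.83 and not called.

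The atypical receptors held no call. ACKR1, which moves chemokines across venular endothelium, had 86.1, 113 and 48.4 CPM in S9, 71.3, 22.2 and 91.9 CPM in S7, and 108, 92.3 and 80.4 CPM in S6. All groups overlapped, and the log2 fold change between S9 and S6 was -0.18 (SE 0.47, adjusted p = 0.835). Blood endothelial markers likewise had no call among 5 genes. ACKR2, which scavenges inflammatory CC ligands, and ACKR3, which takes up CXCL12, had log2 fold changes of -0.04 (SE 0.63) and -0.28 (SE 0.37) between S9 and S6. ACKR4, which scavenges CCL19, CCL21 and CCL25, had 20.5, 20.1 and 10.7 CPM in S9, 14.8, 5.93 and 12.1 CPM in S7, and 8.80, 6.81 and 6.92 CPM in S6. It was the 1 member whose S9 libraries all lay above its S6 libraries, a pattern shared by 18.6% of all tested genes, and its log2 fold change of 1.19 (SE 0.37, adjusted p = 0.0674) did not pass the test. By contrast 25 of 41 members had all S9 libraries below all S6 libraries, against 17.0% of all tested genes.

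Grouped by type, 5 of 8 inflammatory ligands were called lower in S9 than in S6, with a median log2 fold change of -3.71, and 1 of 7 homeostatic ligands, CCL19, with a median of -0.10. Of 9 ligands with both roles 7 were tested and 4 were called lower, with a median of -3.85. Of 19 tested receptors 9 were called lower, with a median of -2.26, beside -0.01 for all tested genes. The share of all tested genes called lower was 6.34%. Without S6_3 the medians were -2.11 for inflammatory ligands with 3 called, 0.10 for homeostatic ligands with 1 called, -1.45 for ligands with both roles with 3 called, and -1.83 for receptors with 4 called, beside 0.03 for all tested genes. In that fit 3.62% of all tested genes were called lower. Inflammatory ligands summed to 18.7, 53.1 and 66.2 CPM in S9, 84.1, 45.3 and 112 CPM in S7, and 209, 500.5 and 184 CPM in S6. Homeostatic ligands summed to 239, 197 and 269 CPM in S9, 247, 246 and 269 CPM in S7, and 244, 350.4 and 230.1 CPM in S6. The inflammatory sum was thus apart between S9 and S6 while the homeostatic sum, which CCL21 and CXCL12 dominate, overlapped. In S9 the inflammatory sum was largely CXCL10 and CCL5, and CXCL10 or CCL5 was also its largest member in each S6 library. Neither of them was called between S9 and S6. The difference between the 2 types was not tested.

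**Figure D3:**
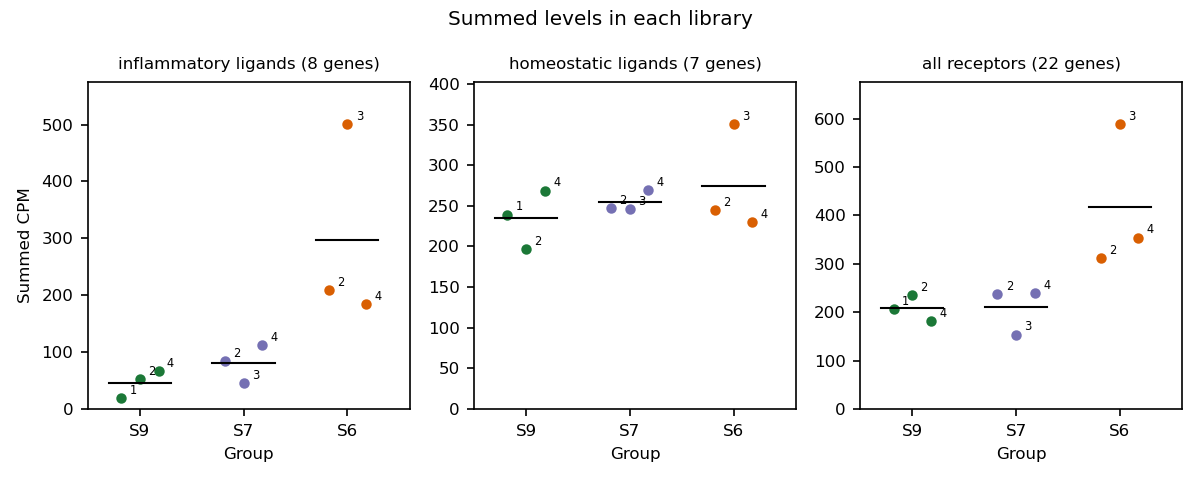
Summed CPM of the 8 inflammatory ligands, the 7 homeostatic ligands and all 22 receptors in S9, S7 and S6, with each library shown by its number and each group mean by a line. The inflammatory sum is at most 66.2 CPM in S9 and at least 184 CPM in S6, the homeostatic sums overlap, and S6_3 has the highest inflammatory and receptor sums.

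Between S7 and S6 no member was called by edgeR, where 0.111% of all tested genes were called in either direction, 0.0643% lower and 0.0468% higher. At an unadjusted p below 0.05, 23 members were lower and none higher, beside 8.44% of all tested genes lower and 8.68% higher. The log2 fold change was negative for 35 of 41 members, against 51.1% of all tested genes. DESeq2 called 18 members lower, beside 4.32% of all genes, and limma-voom 3 (CCR7, CXCL8 and CXCR1), beside 0.994%, in the same comparison. The median log2 fold change of the members was -2.19 with S6_3 and -1.03 without it. CXCL8 had a log2 fold change of -2.92 (SE 0.60, adjusted p = 0.0939), CXCR1 of -2.78 (SE 0.55, adjusted p = 0.0918) and CCR7 of -2.55 (SE 0.47, adjusted p = 0.0871). Members with all S7 libraries below all S6 libraries numbered 19 of 41, against 10.4% of all tested genes. CCL27 was the 1 member apart in the other direction, against 10.7% of all tested genes, at 1.12 to 1.49 CPM in S7 and 0.840 to 1.10 CPM in S6. Its log2 fold change was 0.32 (SE 0.50, edgeR adjusted p = 0.806) and did not pass the test. CXCL13 had 3 counts over the 3 S7 libraries and 497 over the 3 S6 libraries, a 168-fold ratio of S6 to S7 with a 95% counting interval of 57.2 to 818 that covers counting error only. This comparison shares the S6 libraries with that of S9 and S6, so the values of these comparisons are not independent of each other.

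Between S9 and S7 no member and no gene (0%) was called by edgeR. At an unadjusted p below 0.05, CXCL8, CXCR2, CCR1, CXCR4 and CXCL17 were lower in S9 and CXCL13 higher, that is 5 and 1 of 41, beside 5.06% and 4.15% of all tested genes. DESeq2 called CXCR2 alone, beside 0.558% of all genes lower, and limma-voom called no member and no gene (0%). The log2 fold change of CXCR2 was -3.52 (SE 0.96, adjusted p = 0.538), that of CXCL8 was -2.08 (SE 0.60, adjusted p = 0.538), and the median of the members was -0.60, with 33 of 41 negative, against 49.9% of all tested genes. Groups without overlap were seen for CXCL8, CCR1, CCL2, CCL7, CCR7 and CXCL17, all lower in S9, which is 6 of 41 members against 8.81% of all tested genes. No member was apart with S9 above S7, against 8.36% of all tested genes.

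**Figure D4:**
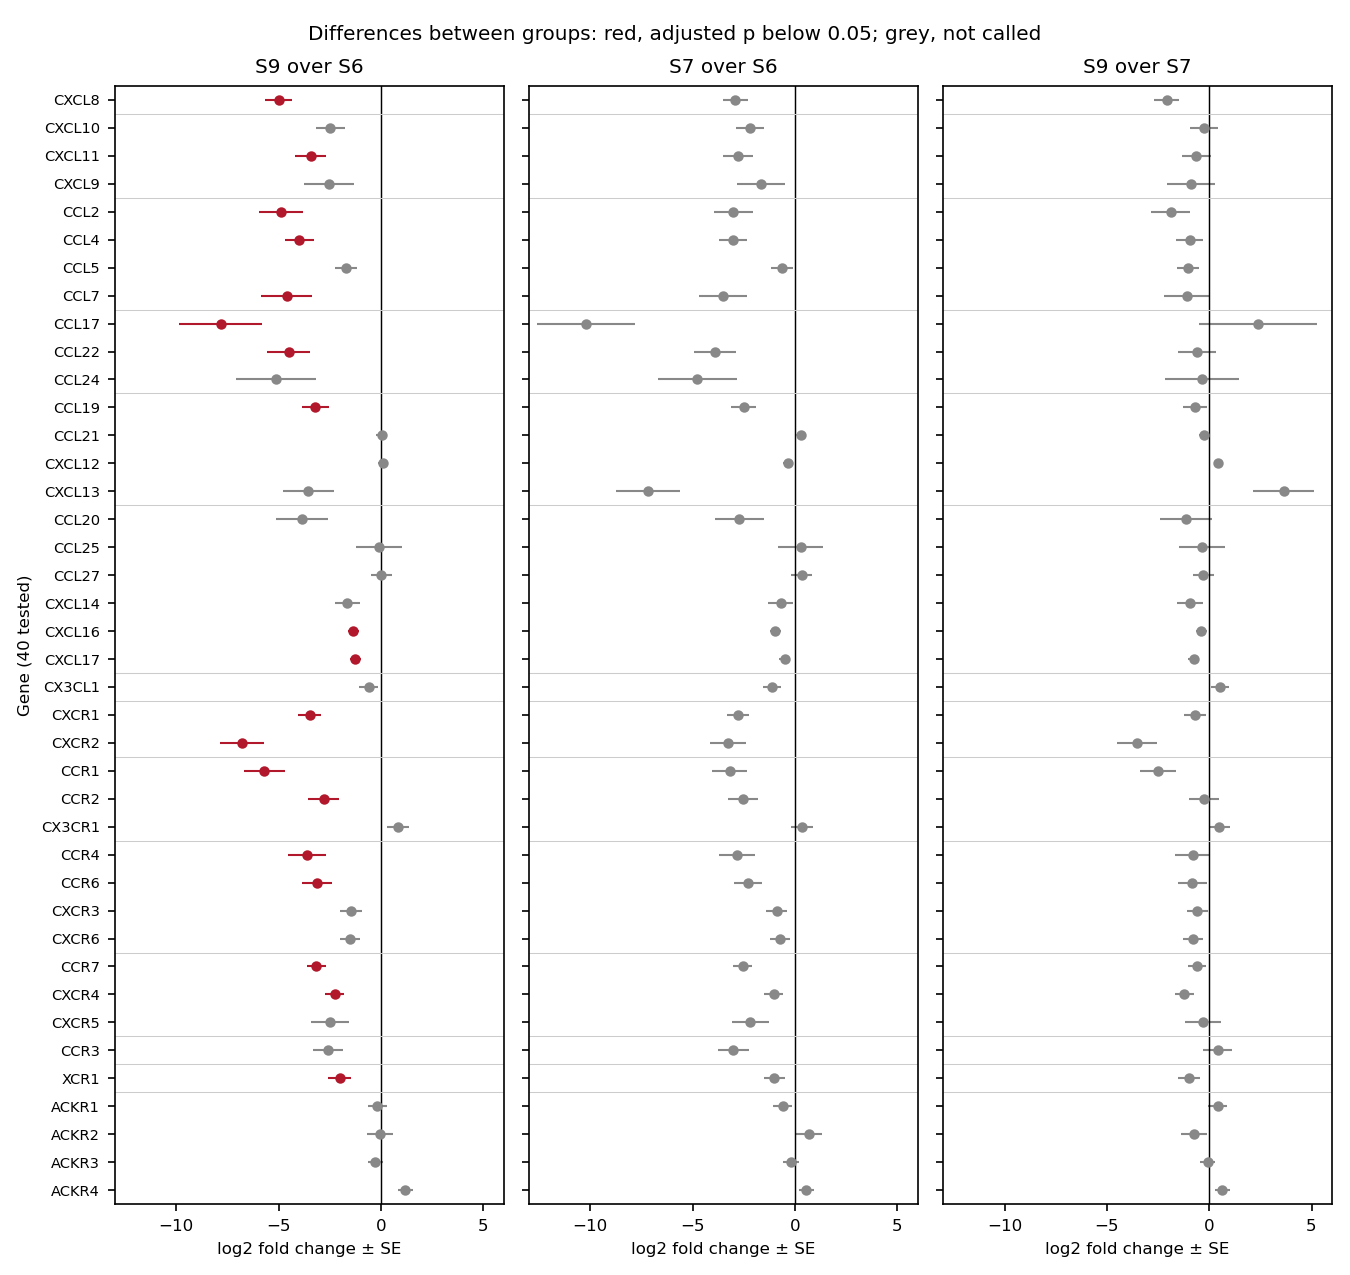
Log2 fold change (x axis) with its SE for 40 tested members (y axis) in the comparisons S9 over S6, S7 over S6 and S9 over S7. Red marks members with an adjusted p below 0.05, which are 19 in S9 over S6, all with negative values, and none in the other comparisons.

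Other genes of the pathway, which are not members, were read from a list of 38, of which 33 were in the table. Between S9 and S6, 12 of the 33 were lower and none higher, beside 6.34% of all tested genes lower and 6.02% higher. Their median log2 fold change was -1.07, beside -0.01 for all tested genes, and -0.67 without S6_3. With that library left out, 8 of the 33 were called lower, beside 3.62% of all genes tested in that fit. FPR1, the formyl peptide receptor by which neutrophils sense bacterial products, had 0.397, 0.520 and 0.741 CPM in S9, 1.47, 1.14 and 1.74 CPM in S7, and 7.21, 13.4 and 7.77 CPM in S6 (log2 fold change between S9 and S6 -4.09, SE 0.43, adjusted p = 0.00941). The platelet chemokine PPBP had 0 counts in S9 and 224 in S6, which is at least 75.2-fold lower in S9 with a floor of 3 counts over the group. The lower genes further along the pathway included RAC2, a GTPase of the blood lineage (log2 fold change -2.70), and CORO1A, an actin-binding protein of leukocytes (-2.81). Among them was also the kinase JAK2 (-0.94, edgeR adjusted p = 0.0196). Broadly expressed G-protein subunits GNAI2 (0.27), GNAI3 (-0.12) and GNB1 (0.21) did not pass the test, nor did DPP4 (1.30, adjusted p = 0.0555), a protease that trims chemokines. Between S7 and S6, and between S9 and S7, none of the 33 was called.

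**Figure D5:**
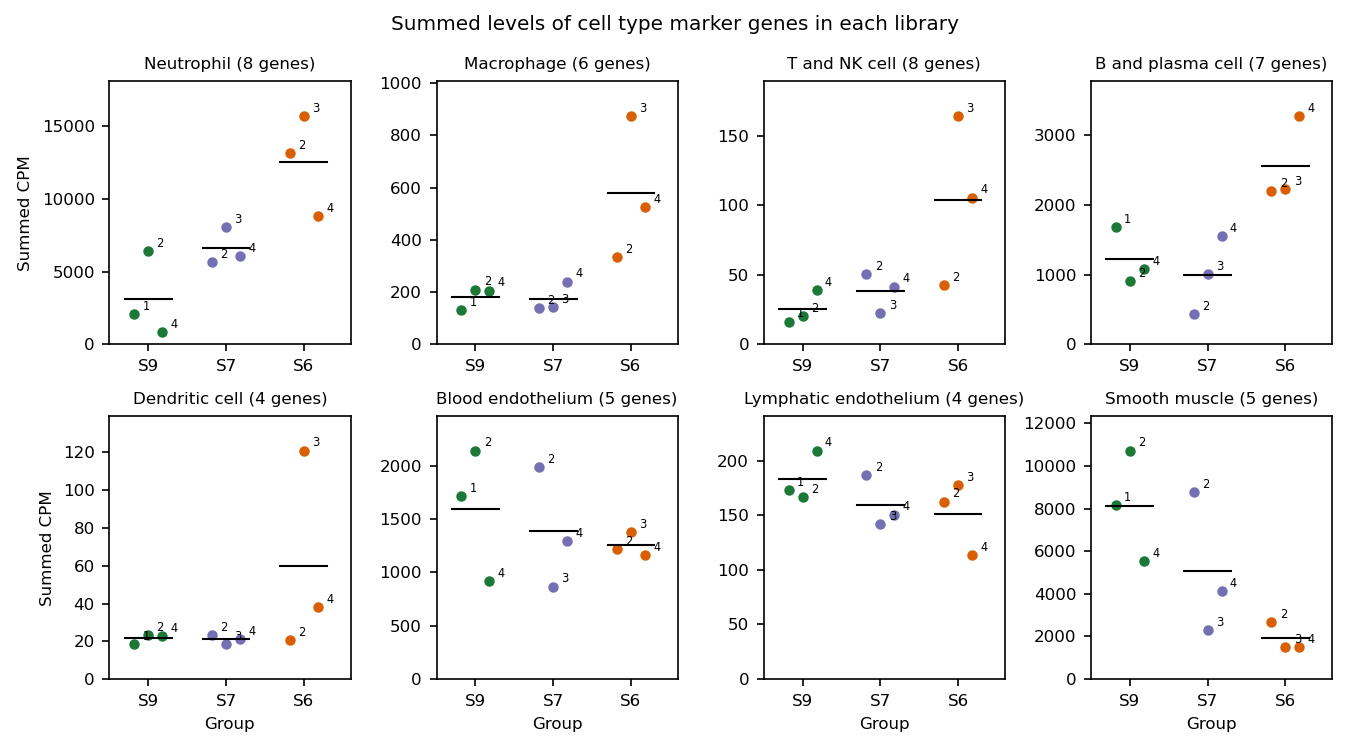
Summed CPM, on linear axes from 0, for 8 lists of cell type markers in S9, S7 and S6, with library numbers as points and group means as lines. Macrophage, T and NK cell, and B and plasma cell sums are lower in S9 than in S6, smooth muscle sums are 5518 to 10716 CPM in S9 and 1518.5 to 2685 CPM in S6, and blood endothelial sums overlap.

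Beside these differences, all 5 smooth muscle markers were called higher in S9 than in S6, and their sums were 5518 to 10716 CPM in S9, 2312 to 8790 CPM in S7 and 1518.5 to 2685 CPM in S6. With S6_3 left out, 0 of the 5 were called higher, and their median log2 fold change was 1.86, against 1.96 with it. The part of tissue composition in the chemokine differences was not tested. The mitochondrial gene ATP6 split the libraries across groups, at 21.5 to 25.9 CPM in S9_4, S7_3 and S6_4 and at 1946 to 3258 CPM in the others. In the 6 libraries with high ATP6 the median log2 fold change of the members between S9 and S6 was -2.89, with none called. The median of all genes in that fit is not given here.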

How the data were processed

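The deposited gene table holds raw counts, that is whole reads summed per gene. The authors also deposited FPKM values, which equal the counts divided by column total and gene length in 172953 of 172961 values above 0 (relative tolerance 1e-06). Per the submitters' processing notes, fastp, HISAT2 and HTSeq were used. The sources used here do not give versions, genome build or strand setting, so reads of overlapping antisense genes cannot be told apart. Members and gene lists were chosen with earlier results of these data known.

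Counts of 17102 genes that passed filterByExpr (minimum count 10, total 15) were scaled by TMM and fitted with edgeR 4.0.16 (quasi-likelihood, robust) in R 4.3.3, with all 9 libraries in 1 fit of 3 groups and Benjamini-Hochberg adjustment over all genes. CPM are counts scaled to 1000000 TMM-adjusted counts of the tested genes. The fit was tested on simulated data. The biological coefficient of variation was 41.9%. No libraries were identical. By rule, values in every library were given for each member called in a comparison, the member of highest mean FPKM in each class and, where a comparison had no call, its member of smallest unadjusted p; other members were added after their values were seen. DESeq2 1.42.0 and limma 3.58.1 served as alternatives, beside other filters and scalings, a length correction, a replicate block and leaving out each library. A gene of the set is counted but not reported by name here. Gene names were compared with RefSeq assembly mOryCun1.1, in which all 46 members were found.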

Additional observations from a re-analysis of the deposited data

How the results depend on the processing

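Over 17 alternatives the calls of the 27 members named by rule were compared 1368 times: 1206 kept their side of the threshold, 130 lost a call, 32 gained one and no called value changed sign. Of their 1371 log2 fold changes 16 changed sign, in 7 of 81 gene and comparison pairs that were not called, among them ACKR1 and CCL21 between S9 and S6. Between S9 and S6, where 19 members were called, the number was 29 with DESeq2 and 0 in the 6 libraries with high ATP6, and 0 to 22 when 1 library was left out. It was 16 to 22 under DESeq2 size factors, other filters, limma-voom and a length correction. Between S7 and S6 the count of 0 became 18 with DESeq2 and 3 with limma-voom, and stayed at 0 to 0 when 1 library was left out. Between S9 and S7 it became 1 with DESeq2 and stayed at 0 to 0 when 1 library was left out. With the library number as a replicate block, 0 members were called in each comparison. The numbers were not taken to pair the libraries: deviations of the 7 same-numbered pairs correlated at -0.0649 to 0.138, and not every library correlated best with its own number. Fewer libraries or residual degrees of freedom remain in the fits that leave out libraries or add the block. The calls lost on leaving out 1 library were 0 for S6_2, 2 for S7_3, and 19 for S9_1 and for S9_2. The cause of the changes was not tested. Members under 10 counts, such as CCL17 in S9, are limited by depth.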

Other observations

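A row that carries a LOC number and that the RefSeq table names as CCL14, a chemokine of plasma, was not matched by symbol. It had 13.4, 27.0 and 25.2 CPM in S9, 22.5, 16.9 and 24.7 CPM in S7, and 20.6, 32.5 and 10.2 CPM in S6. The groups overlapped, and its log2 fold change between S9 and S6 was 0.05 (SE 0.41, edgeR adjusted p = 0.948). The tested members were shorter than the median gene for 33 of 41, with a median length of 2118 bases against 3107 bases for all tested genes.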
